A study of Mus musculus with 6 samples.

Results

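The vacuolar proton pump (V-ATPase) genes described here are Atp6v1e1 and 9 further genes of the same complex, measured in microglia from mouse spinal cord. The choice started from Atp6v1e1, which stood out between the genotypes in an earlier look at these counts, and the others were added by name as subunits or partners of the pump. Of the 10 genes, 6 encode V1 subunits (Atp6v1e1, Atp6v1a, Atp6v1b2, Atp6v1c1, Atp6v1d and Atp6v1h), 3 encode V0 subunits (Atp6v0c, Atp6v0d1 and Atp6v0a1) and Atp6ap1 encodes an accessory protein. They stand among 27 pump genes listed, 55401 genes in the table and 16248 genes tested, and all 10 passed the filter on low counts. The question was whether V1 and V0 subunits moved together between the genotypes or Atp6v1e1 moved alone.

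RNA came from microglia drawn from spinal cords of untreated mice aged 7 months with beads against the myeloid integrin CD11b. The control group was non-transgenic C57BL/6 (NTg; replicates 7, 9 and 11). The other group (ATXN2-Q33;TDP-43; replicates 8, 10 and 12) was heterozygous for both hATXN2-Q33, carried as a knock-in, and hTDP-43, and is called the double mutant below. Each of the 6 libraries held cells pooled from 3 cords, 9 animals per group, so the spread between libraries is a spread between pools. The labels name no promoter for either human sequence.

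The vacuolar proton pump is a rotary motor on lysosomes, endosomes and phagosomes. Its cytosolic V1 sector burns ATP and turns a central stalk, and its membrane sector V0 carries protons into the lumen through a ring that turns with it. V1 can detach from V0 and rejoin it, and the peripheral stalks, built from E and G subunits and held by C and H, are the joints where that happens. In microglia, as in other macrophages, the acid it makes serves the hydrolases that digest engulfed myelin, cell debris and protein aggregates.

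Library totals ran from 12553570 to 22854628 counts, and the members drew from 762 to 6180 counts in a library. For genes at 10 CPM (counts scaled to library size) or more, the 95% interval of the genotype difference reached a median of 0.29 on the log2 scale to either side. Microglial markers summed to 11880 to 14930 CPM in NTg and 10580 to 15280 in the double mutant. Other cells' markers were far lower, and their summed levels overlapped between the genotypes for each list: oligodendrocyte 140.5 to 1522 against 122 to 961 CPM, ependymal 10.4 to 20.8 against 17.7 to 62.2, neutrophil 70.1 to 305 against 25.1 to 850, endothelial 92.8 to 283 against 94.3 to 299 and border macrophage 121 to 142 against 110.3 to 159. The summed ranges were 35.5 to 38.3 against 36.6 to 67.7 CPM for astrocytes, 10.7 to 16.3 against 9.82 to 24.7 for neurons, 44.0 to 66.8 against 39.5 to 119 for monocytes and 131 to 149 against 116 to 135 for B cells. None of the 53 marker entries was at 0 in every library, and 0 of those tested passed between the genotypes. By median log2 fold change, all 5 neutrophil markers (1.22), all 5 monocyte markers (1.05) and all 4 tested ependymal markers (1.38) had positive values in the double mutant. Their part in the values below was not tested, and in such bulk libraries fewer cells of a type and less RNA per cell cannot be told apart. Mouse Tardbp and Atxn2 differed by 0.05 and 0.09 on the log2 scale; the human sequences were not counted, so neither gene checks the labels.

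In these microglia 18 of the 21 tested pump genes were at 10 CPM or more. Housekeeping isoforms were the highest of their subunit, except that Tcirg1 lay above Atp6v0a1 and Atp6v0a2. Levels were compared as FPKM, here CPM divided by the deposited exon length in kilobases, averaged over all 6 libraries. Atp6v0c, the proteolipid that builds the proton-carrying ring, was the highest at 83.9 FPKM. Tcirg1, the a3 isoform of the large membrane subunit, known from lysosomes and osteoclasts, came next at 56.75 FPKM, and both were clear of the genes beside them in every library. Atp6v1g1, Atp6ap1, Atp6v0d1 and Atp6v0b followed between 43.7 and 35.55 FPKM, with neighbouring ranges that overlapped. The next tier of 10 genes lay between 29.0 and 18.6 FPKM. It held Atp6v1f, Atp6ap2, Atp6v0a1, Atp6v1c1, Rnasek, Atp6v1e1, Atp6v0a2, Atp6v1d, Atp6v1a and Atp6v1b2 in descending order, and no neighbouring pair in it was separated by its library ranges. Atp6v1e1 was therefore a gene of middling level for the pump, at 24.9 ± 1.5 FPKM (SD, n = 3) in NTg. Atp6v0e lay at 10.98 FPKM and Atp6v1h at 6.06 FPKM, below all of these and apart from each other. This order depends on the deposited exon length, which is 9746 bases for Atp6v1h and 1135 bases for Atp6v1g1. Before division by length, the NTg mean of Atp6v1h (63.4 CPM) was above that of Atp6v1g1 (49.9 CPM).

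Apart from Tcirg1, the tissue-restricted isoforms were scarce. Atp6v1g2, known from neurons, was at 1.24 FPKM, Atp6v0e2 at 0.84 FPKM and Atp6v0d2, known from osteoclasts, at 0.33 FPKM. Atp6v1b1, Atp6v1e2, Atp6v1g3 and Atp6ap1l had a count of 0 in every library, and Atp6v1c2 had 1 count in a single library. Atp6v0a4, a kidney isoform, had at most 4 counts, and it shares exon positions with a gene on the same strand, so its few counts are uncertain. None of these 6 was tested. For Atp6v1e2, the paralog of Atp6v1e1, a count of 0 allows up to 3 counts, at most 0.239 CPM in the shallowest library, so nearly all E subunit transcript measured was that of Atp6v1e1.

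**Figure D1:**
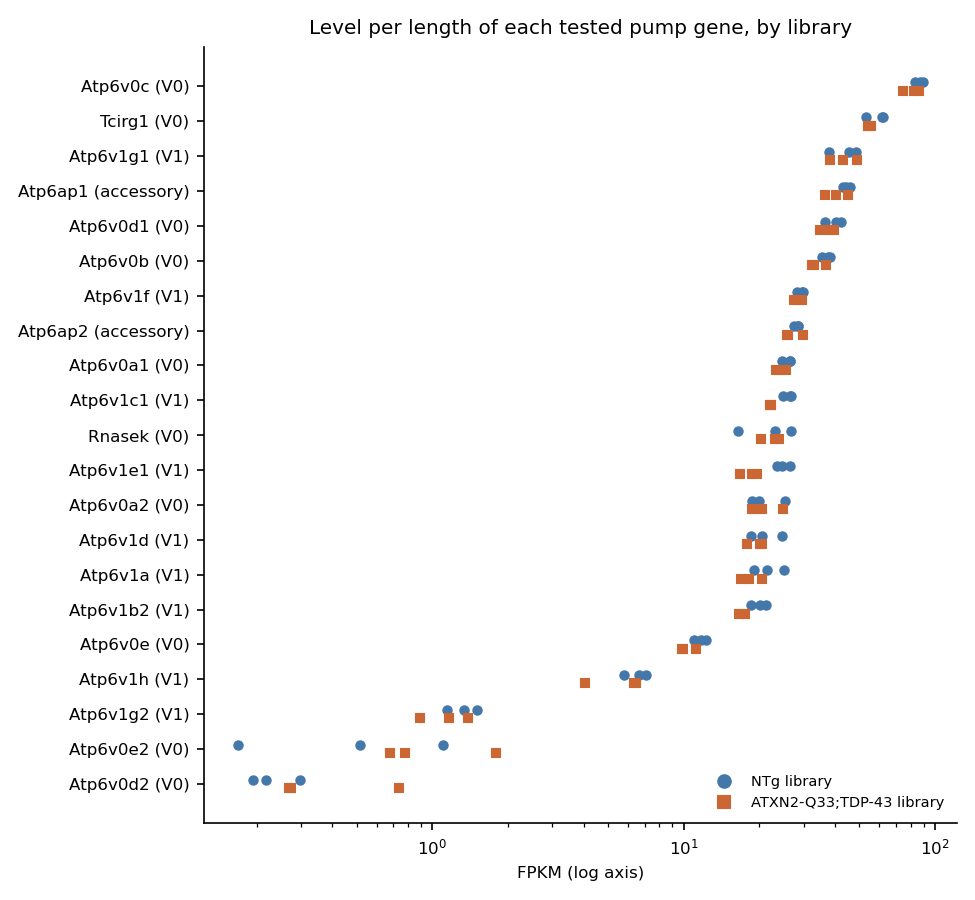
Level of each of the 21 tested pump genes in FPKM on a log axis, with 1 point per library, NTg as circles and the double mutant as squares, sorted by the mean over 6 libraries. Atp6v0c is highest at 83.9 FPKM, 10 genes crowd between 29.0 and 18.6, and Atp6v0d2 is lowest at 0.33.

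Between the genotypes, Atp6v1e1 had the lowest double-mutant level relative to NTg of the 10 genes. The estimates of the other 5 V1 members were modestly lower and those of the 3 V0 members were smaller, with 95% intervals that overlapped between the sectors. The log2 fold changes (double mutant minus NTg) were -0.44 for Atp6v1e1, -0.12 to -0.24 for the other 5 V1 members and -0.09 for each V0 member. Those of Atp6v1d and Atp6v1h each depended on 1 library, as given below. In edgeR's quasi-likelihood fit over all genes, 0 of the 10 members had an adjusted p below 0.05, and so did none of the 16248 genes tested (0.0%). At an unadjusted p below 0.05, the count was 3 of 10 members, all lower (Atp6v1e1, Atp6v1c1 and Atp6v1b2), and 2 of the 9 other than Atp6v1e1. On that side lay 0.862% of all tested genes and 1.06% of those at 10 CPM or more, and 2.26% of all tested genes lay on either side. DESeq2 gave 0 adjusted (0.0431% of all genes) and 3 unadjusted (2.45%), and limma voom gave 0 adjusted (0.0%) and 3 unadjusted (1.75%). With a block of neighbouring replicate codes (7 and 8, 9 and 10, 11 and 12), which the labels do not name as pairs, 1 of 10 members, Atp6v1e1, passed the adjusted threshold in edgeR, as did 0.437% of all tested genes. All 10 members had a negative fold change, as had 48.0% of all tested genes and 53.8% of genes at 10 CPM or more. Since Atp6v1e1 was picked from this contrast, these counts describe the members and carry no test of them.

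Atp6v1e1 encodes the E subunit of the peripheral stalk (ENSMUSG00000019210.10, mm10 chr6:120794305-120822793, minus strand). NTg replicates 7, 9 and 11 held it at 108.7, 96.44 and 101.6 CPM, double-mutant replicates 8, 10 and 12 at 77.0, 80.61 and 68.92 CPM, and later values follow that order. Every double-mutant library was below every NTg library. The means were 102.2 ± 6.17 and 75.5 ± 5.99 CPM (SD, n = 3 each), the second being 73.9% of the first. The log2 fold change was -0.44 (SE 0.09, 95% interval -0.65 to -0.23), and 0.313% of genes at 10 CPM or more had a value as low or lower. Because Atp6v1e1 was picked from this contrast, that share describes it and carries no test. Leaving out each library in turn gave -0.49 to -0.37.

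The catalytic head of V1 is a ring of A and B subunits. Atp6v1a, the A subunit that hydrolyses ATP (ENSMUSG00000052459.13, chr16:44085402-44139705), measured 129.1, 151.0 and 115.3 CPM across NTg against 109.9, 124.0 and 102.0 CPM across the double mutant. The groups overlapped, because NTg 11 was below double-mutant 10. The log2 fold change was -0.24 (SE 0.12, 95% interval -0.51 to 0.03), and -0.13 without NTg 9. Atp6v1b2, the B subunit (ENSMUSG00000006273.14, chr8:69088646-69113711), measured 106.9, 113.0 and 98.5 CPM across NTg against 91.0, 88.3 and 93.3 CPM across the double mutant. Its groups did not overlap, as for Atp6v1e1, and the fold change was -0.22 on the log2 scale (SE 0.09, 95% interval -0.42 to -0.03). Group separation with the double mutant below was found for 3 of the 10 members. Without Atp6v1e1, which was picked from this contrast, the count was 2 of 9. The share was 3.58% of all tested genes and 3.79% of those at 10 CPM or more. These counts describe the members and carry no test of them.

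Atp6v1c1, the C subunit that bridges the peripheral stalks to V0 (ENSMUSG00000022295.8, chr15:38661933-38692446), was the third member without overlap. Its levels were 150.3, 147.8 and 138.7 CPM across NTg against 125.1, 125.1 and 123.2 CPM across the double mutant, where the libraries were nearly level (124.5 ± 1.10 CPM, SD, n = 3). The log2 fold change was -0.23 (SE 0.08, 95% interval -0.40 to -0.05). Atp6v1h, the H subunit that holds the stalks to V0 and quiets detached V1 (ENSMUSG00000033793.12, chr1:5070018-5162529), measured 64.9, 68.8 and 56.3 CPM across NTg against 61.9, 62.7 and 39.6 CPM across the double mutant. Its mean difference came from double-mutant 12, and the log2 fold change of -0.21 (SE 0.18) was -0.02 without that library. Atp6v1d, a part of the central stalk (ENSMUSG00000021114.9, chr12:78840725-78861638), measured 113.4, 85.6 and 94.3 CPM across NTg against 92.7, 82.4 and 94.4 CPM across the double mutant. Only NTg 7 stood above the rest, and the log2 fold change of -0.12 (SE 0.12) was -0.0031 without it.

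**Figure D2:**
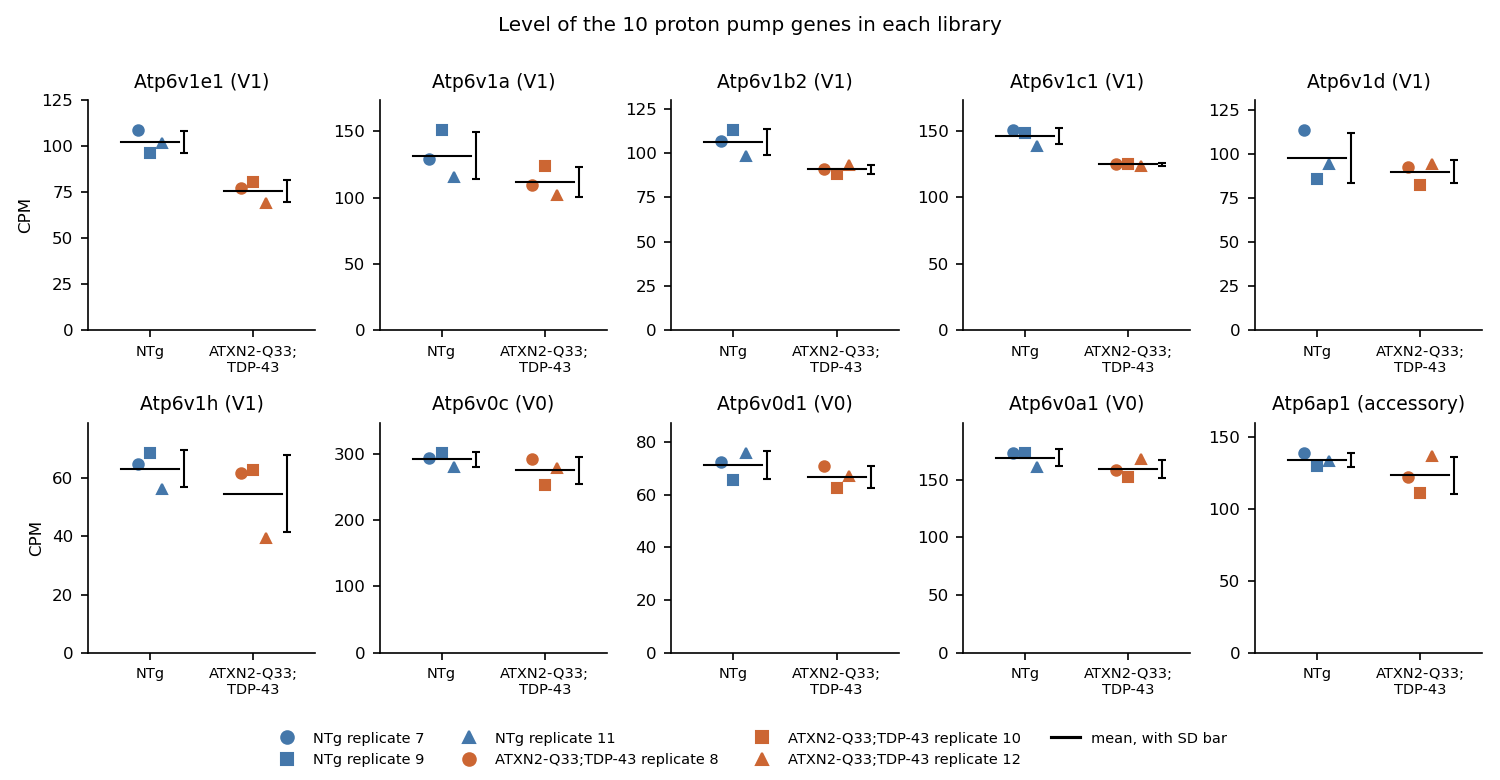
Level of each of the 10 members in CPM on axes from 0, with 1 point per library, a line at each group's mean and a bar of 1 SD to either side (n = 3). The groups are apart for Atp6v1e1, Atp6v1b2 and Atp6v1c1 and overlap for the other 7 genes; Atp6v1h in double-mutant 12 is low at 39.6 CPM.

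The V0 members had smaller fold changes. Atp6v0c (ENSMUSG00000024121.13, chr17:24163866-24169702) measured 294.9, 302.5 and 280.5 CPM across NTg against 293.2, 253.2 and 279.9 CPM across the double mutant. Atp6v0d1, the subunit that joins the central stalk to the ring (ENSMUSG00000013160.7, chr8:105524465-105566047), measured 72.5, 65.6 and 76.0 CPM against 70.9, 62.6 and 67.3 CPM. Atp6v0a1, the a1 isoform that provides the proton path beside the ring (ENSMUSG00000019302.16, chr11:101009452-101063719), measured 173.0, 173.5 and 161.0 CPM against 158.2, 152.1 and 167.8 CPM. All 3 had overlapping groups, and double-mutant 10 was the lowest of the 6 libraries for each. Their log2 fold changes were -0.09 (95% interval -0.29 to 0.12), -0.09 (-0.30 to 0.12) and -0.09 (-0.27 to 0.10). The interval of Atp6v1e1 (-0.65 to -0.23) overlapped each of them. Without double-mutant 10 the values were -0.03, -0.05 and -0.05, and that of Atp6v0d1 was -0.04 without NTg 11. Atp6ap1, the accessory protein Ac45 that helps assemble V0 (ENSMUSG00000019087.13, chrX:74297097-74304721), measured 139.2, 129.9 and 133.4 CPM against 122.5, 110.8 and 136.9 CPM. Its highest double-mutant library was above 2 of the NTg libraries, and its log2 fold change was -0.12 (SE 0.10), -0.05 without double-mutant 10 and -0.20 without double-mutant 12.

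**Figure D3:**
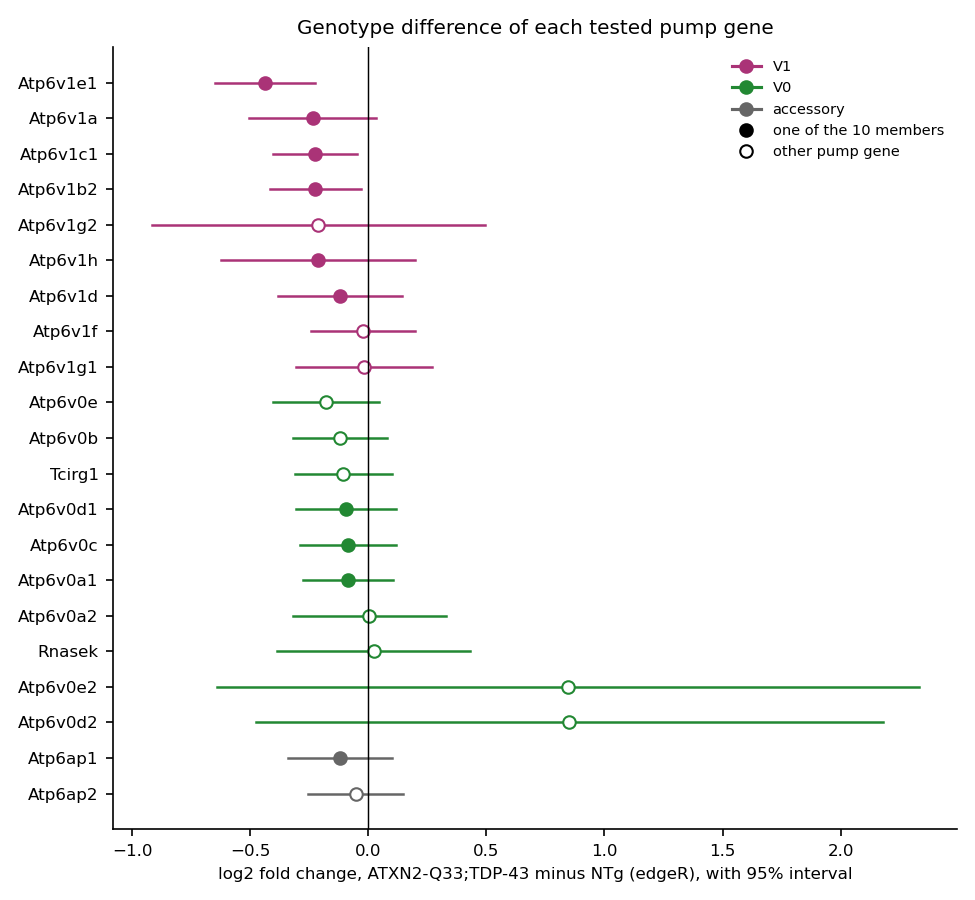
Genotype difference of the 21 tested pump genes as log2 fold change (double mutant minus NTg) with 95% intervals, V1, V0 and accessory genes by colour, members filled. Atp6v1e1 is lowest at -0.44, the V0 members lie at -0.09, and the widest intervals belong to the scarce isoforms Atp6v0e2 and Atp6v0d2.

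By sector, the median log2 fold change was -0.22 over the 5 V1 members other than Atp6v1e1, -0.09 over the 3 V0 members and -0.12 over the 9 members other than Atp6v1e1. The median of all tested genes was 0.01, and that of genes at 10 CPM or more was -0.01. Without double-mutant 10 the median of the 9 was -0.06 and that of the V0 members -0.05. The alignments of NTg 7 and NTg 9 are named as combined and those of the other libraries are not. With that as a covariate, where the control side rests on NTg 11 alone, the median of the 5 V1 genes was -0.07 and Atp6v1e1 was at -0.43. In that fit Atp6v1c1 was at -0.16, Atp6v1b2 at -0.12, Atp6v1d at -0.07, and Atp6v1a and Atp6v1h at -0.04 each. Leaving out only NTg 7 or only NTg 9, without the covariate, kept the median of the 5 V1 genes at -0.20 and -0.18. The covariate fit sets the double mutant against NTg 11, which was the lowest NTg library for 4 of the 6 V1 members. Whether the combining of alignments had a part in the V1 values was not tested.

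Whether the V1 members stood lower against the 3 V0 members was read from the log2 ratio of their geometric means within each library, which is free of library scaling. With all 6 V1 members it was -0.51, -0.51 and -0.63 in NTg 7, 9 and 11, and -0.71, -0.56 and -0.84 in double-mutant 8, 10 and 12. The double-mutant mean was the lower (-0.70 ± 0.14 against -0.55 ± 0.07, SD, n = 3 each), but double-mutant 10 lay above NTg 11, so the groups overlapped. Without Atp6v1e1 the means were -0.66 ± 0.13 and -0.54 ± 0.09, again overlapping. Between neighbouring codes (8 minus 7, 10 minus 9 and 12 minus 11) the ratio differed by -0.21, -0.05 and -0.21, and without Atp6v1e1 by -0.16, -0.04 and -0.15, each lower in the double mutant. The difference between these V1 and V0 members was not tested. The ratio leaves out 3 other tested V1 genes, with a median log2 fold change of -0.02 (-0.21 to -0.02). It also leaves out 7 other tested V0 genes, with a median of 0.003 (-0.18 to 0.85), so it does not describe either sector as a whole.

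Atp6v1e1 was set against the rest of the pump in the same way, as the log2 ratio of its CPM to the geometric mean of the other 9 members. The ratio was -0.21, -0.36 and -0.19 in NTg 7, 9 and 11, and -0.55, -0.41 and -0.64 in double-mutant 8, 10 and 12. The groups were apart, by 0.06 between NTg 9 and double-mutant 10, and the means differed by -0.28 (-0.25 ± 0.09 against -0.53 ± 0.11, SD, n = 3 each). Leaving out each library gave differences of -0.34 to -0.23, and neighbouring codes gave -0.34, -0.06 and -0.45. Atp6v1c1 and Atp6v0a1 also had ratios without overlap, but with small differences of -0.04 and 0.11 and gaps of 0.01 and 0.02. The other 7 members overlapped, with differences from -0.06 (Atp6v1h) to 0.11 (Atp6v0c). For every member but Atp6v1e1 the reference includes Atp6v1e1, whose lower double-mutant level raises that member's ratio there. How often such ratios separate the groups over all genes was not computed. Atp6v1e1 therefore lay lower than its partners in these libraries by a margin that no other member showed, in a gene chosen for that contrast.

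**Figure D4:**
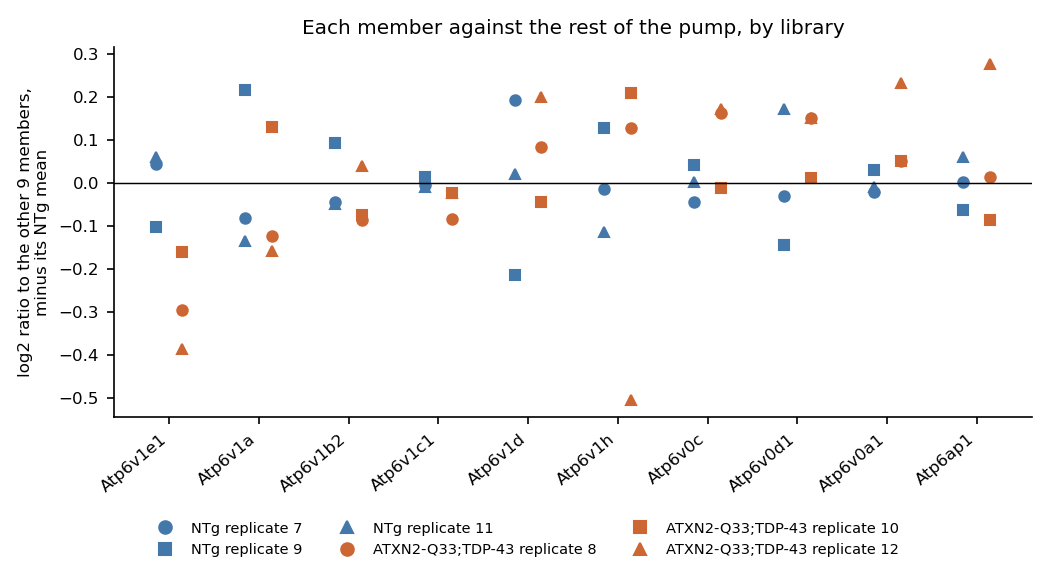
Log2 ratio of each member to the geometric mean of the other 9 members in each library, shown relative to its NTg mean, with blue for NTg, orange for the double mutant and symbols for replicates. Atp6v1e1 in the double mutant lies below its NTg libraries, by a mean of -0.28, and Atp6v1h in replicate 12 is the single lowest point.

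The libraries did not order the members alike. Double-mutant 10 was the lowest of the 6 libraries for 6 members, among them all 3 V0 genes, and double-mutant 12 was the lowest for 4, all of them V1 genes including Atp6v1e1. Double-mutant 8 was the lowest for 0 members. NTg 9 was the highest for 5 members, NTg 7 for 4 and NTg 11 for 1. Double-mutant 10 also had the highest sums of ependymal (62.2 CPM) and astrocyte markers (67.7 CPM) and the lowest of microglial markers (10580 CPM), and the part of these in the V0 values was not tested.

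Of the 17 other pump genes, 11 were tested and 0 passed the threshold. Their fold changes were negative for 7 and positive for 4, with a median of -0.02. For the 8 at 10 CPM or more the median was -0.04, and -0.11 without double-mutant 12. Atp6v1f, the partner of Atp6v1d in the central stalk, and Atp6v1g1, which pairs with Atp6v1e1 in the peripheral stalk, each differed by -0.02 on the log2 scale. Atp6v1g1 measured 51.8, 42.8 and 55.1 CPM across NTg against 48.7, 43.5 and 55.6 CPM across the double mutant (log2 fold change -0.02, 95% interval -0.31 to 0.27). The interval of Atp6v1e1 (-0.65 to -0.23) overlapped it. Among membrane subunits, Atp6v0e was at -0.18 (SE 0.10), Atp6v0b at -0.12 (SE 0.09), Tcirg1 at -0.11 (SE 0.09), Atp6v0a2 at 0.00 (SE 0.14) and Rnasek, whose exons overlap another gene on its strand, at 0.02 (SE 0.18). Atp6ap2, the prorenin receptor that attaches to V0, was at -0.05 (SE 0.09). The scarce isoforms Atp6v0d2 (0.85, SE 0.59), Atp6v0e2 (0.85, SE 0.65) and Atp6v1g2 (-0.21, SE 0.31) had intervals that spanned 0.

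Many lysosomal genes carry a palindromic element, TCACGTGA, read by transcription factors of the TFEB family, with CACGTG as its core. Promoters of 300 bases, from 250 before to 50 after the RefSeq start (GRCm38.p6), were found for 7 of the 10 members and searched on both strands. TCACGTGA was in the promoters of 2 of the 7, Atp6v1a and Atp6v0d1, and in 0.974% of the 32851 promoters of the table. The shorter CACGTG, which every TCACGTGA contains, was in the same 2 of 7 and in 7.15% of all promoters. Members were counted by gene (7 genes with 9 promoters) and the table by promoter (32851 promoters of 27025 genes), so the shares differ in unit. Over the 14 tested pump genes with a promoter, Atp6v0e also held TCACGTGA and Atp6v0b held CACGTG. The element began 132 bases before the start in Atp6v1a and 4 bases before it in Atp6v0d1, whose genotype differences were -0.24 and -0.09. Atp6v1e1, with the lower value of -0.44, had neither word in its window. The lines below show the element of each matching member in capitals within 60 bases and the whole 300-base window of Atp6v1e1, all read 5′ to 3′ along the gene's strand.
Atp6v1a, chr16:44139358-44139417, minus strand: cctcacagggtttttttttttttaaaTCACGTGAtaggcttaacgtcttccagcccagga
Atp6v0d1, chr8:105566035-105566094, minus strand: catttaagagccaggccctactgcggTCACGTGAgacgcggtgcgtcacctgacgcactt
Atp6v1e1, chr6:120822649-120822948, minus strand: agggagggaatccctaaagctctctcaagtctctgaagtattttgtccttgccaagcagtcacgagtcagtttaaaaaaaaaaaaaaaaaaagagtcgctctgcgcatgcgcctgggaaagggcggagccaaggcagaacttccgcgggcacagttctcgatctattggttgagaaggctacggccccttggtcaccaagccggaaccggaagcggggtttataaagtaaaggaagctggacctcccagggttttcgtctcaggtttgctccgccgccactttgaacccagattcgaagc
A match is a word in this window, not a bound site, and nothing about a factor follows from the window of Atp6v1e1.

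Genes that act on the pump or share its membrane were read from 5 lists. Of 38 genes listed, 37 were tested, 24 had a negative and 13 a positive fold change, the median was -0.06, and 0 passed the threshold. The lysosomal scaffold of mTORC1, a kinase complex that senses nutrients with the help of the pump, had 9 tested genes, 7 of them negative, with a median of -0.11. For the 6 of them at 10 CPM or more the median was -0.16, and -0.06 without NTg 11. Within it Rragc, a small GTPase that recruits mTORC1, measured 127.0, 125.6 and 123.7 CPM across NTg against 107.2, 101.6 and 105.1 CPM across the double mutant. Its groups did not overlap, with a log2 fold change of -0.26 (SE 0.08), and it was the only gene of the 38 with an unadjusted p below 0.05, a count of 1 in 37 tested beside 2.26% of all tested genes. Its adjusted p in edgeR was 1.0. Lamtor1, the anchor of the scaffold, was at -0.17 (SE 0.10). Groups without overlap were found for Rragc, Lamtor1, and Tfe3 and Tmem175 of the other lists, each lower in the double mutant. That made 4 of the 37 tested genes, with 0 on the higher side, beside 3.58% of all tested genes on the lower side.

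The transcription factors of the lysosomal network had 5 tested genes and a median of -0.09, with Tfe3 at -0.14 (SE 0.08), Tfeb at -0.09 (SE 0.10) and Mitf at 0.12 (SE 0.10). That median takes in Tfec, at -0.87 with an SE of 1.18; for the 4 factors at 10 CPM or more it was -0.02, turning to 0.06 without NTg 11 and 0.04 without double-mutant 10. Lysosomal ion channels and exchangers, 12 genes, had a median of -0.03. For the 11 at 10 CPM or more it was -0.05, -0.01 without double-mutant 8 and 0.01 without NTg 9. The potassium and proton channel Tmem175 was at -0.34 (SE 0.15) and the calcium-releasing Tpcn1 at -0.11 (SE 0.09). The 7 tested regulators of V1 and V0 assembly had a median of -0.04, with Meak7 at -0.45 (SE 0.24) and Ncoa7 at -0.17 (SE 0.16). For the 6 at 10 CPM or more it was -0.01, and 0.01 without double-mutant 8 or NTg 7. The 4 genes listed as assembly factors had a median of -0.06, with Ccdc115 at -0.11 (SE 0.16) and Tmem9 at 0.12 (SE 0.28).

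The genes beside Atp6v1e1 on chromosome 6 were examined for a shared difference. Within 1 Mb to either side lay 16 tested protein-coding genes, 8 of them with a negative fold change, and 0 passed the threshold in edgeR. At an unadjusted p below 0.05 the count was 3 of 16 (18.8%), against 331 of 13033 protein-coding genes (2.54%), and it was 1 when any of NTg 7, NTg 11, double-mutant 8 or double-mutant 10 was left out. The 3 did not share a direction. Slc25a18, a mitochondrial glutamate carrier whose end overlaps that of Atp6v1e1 on the opposite strand, was at 1.59 (SE 0.61) and rested on low levels, 1.61, 1.71 and 0.59 CPM across NTg against 1.78, 7.06 and 2.75 CPM across the double mutant. Bid, a promoter of apoptosis, was at -0.44 (SE 0.16), with 19.3, 17.2 and 23.7 CPM against 14.2, 13.7 and 16.5 CPM and no overlap. Erc1, a scaffold of vesicle release, was at 0.43 (SE 0.18). The nearest genes that do not overlap Atp6v1e1 were Bcl2l13, 13.4 kb away, at -0.12 (SE 0.11), and Cecr2, 23.1 kb away on the other side, at 0.67 (SE 0.54). Chromosome 6 also holds the tested pump genes Atp6v1f and Atp6v0e2, at -0.02 and 0.85.

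**Figure D5:**
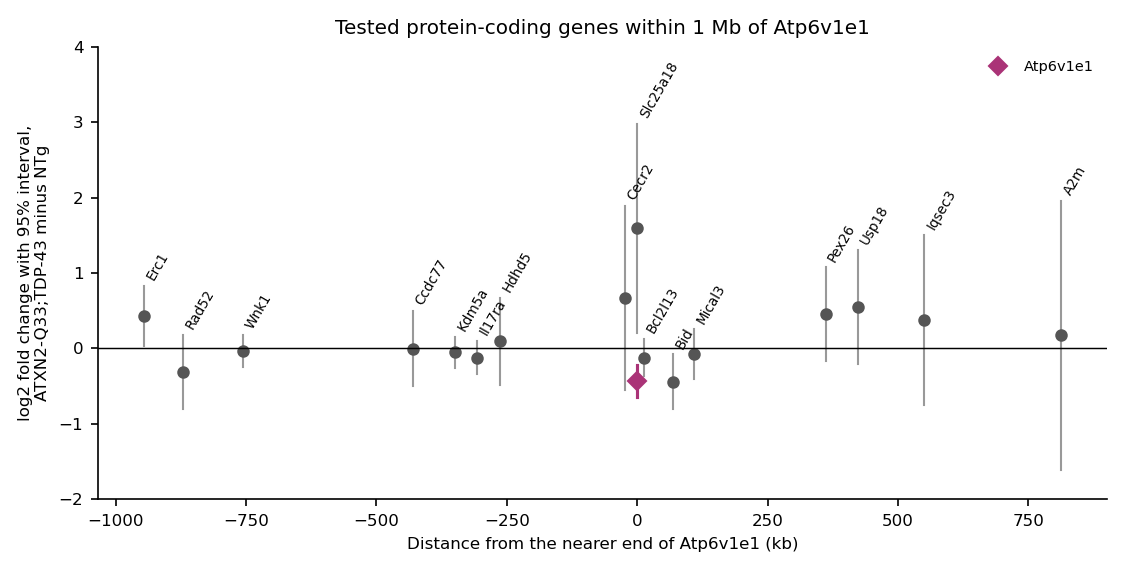
Log2 fold change (double mutant minus NTg) with 95% interval for Atp6v1e1 and the 16 tested protein-coding genes within 1 Mb, against distance from its nearer end in kilobases. Slc25a18 at 1.59, Bid at -0.44 and Erc1 at 0.43 are the 3 whose intervals leave 0, and they lie on both sides of it.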

How the data were processed

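The deposited table holds raw counts of fragments per gene, which the authors made with featureCounts 1.6.1 per the file headers, on mm10 with GENCODE vM25, using strand and counting a fragment for each gene it overlaps. Upstream tools named in the submitters' processing notes are Trim Galore 0.4.1, FastQC, TopHat2 and DESeq2. The recorded options leave out reads with several alignments; no member shares an exon on its strand with another gene, and the pseudogene Atp6v0c-ps2 had 1 to 5 counts per library. The 6 columns of other samples were not used. Symbols were taken by identifier for 55141 of 55401 genes.

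Counts were used as deposited. Genes passing filterByExpr (minimum count 10) were fitted in edgeR 4.0.16 (R 4.3.3; TMM, robust quasi-likelihood, no covariate) and adjusted by Benjamini-Hochberg over 16248 genes, threshold 0.05; the steps were tested on simulated data. CPM use TMM-scaled totals, and FPKM divide them by the deposited exon length. A standard error is the unshrunk fold change over the root of F. DESeq2 1.42.0, limma 3.58.1, other filters and scalings, covariates and each library left out were alternatives.

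The members, lists and tests were chosen with earlier results of these data known. The text names all members, every tested pump gene, 2 genes of smallest p per supporting list, the 3 neighbours of smallest p with the nearest on each side, and the 5 genes most like Atp6v1e1; Tfeb and Tfec were named after their values were seen.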

Additional observations from a re-analysis of the deposited data

How the results depend on the processing

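Atp6v1e1 kept its direction under all 14 alternatives, and so did the other 9 members (126 of 126 values negative, 0 past the threshold, smallest adjusted p 0.118 in edgeR). Over all genes the count past the threshold was 0 with edgeR, 7 with DESeq2, 6 with no filter on low counts and 0 to 2 with each library left out (2 without double-mutant 12). The median of the 9 members other than Atp6v1e1 ranged from -0.16 to -0.062 (without double-mutant 10) with each library left out, and the neighbour count from 1 to 3. The V1 median without Atp6v1e1 was -0.07 with the combined alignments as a covariate. The labels share no replicate number between the groups, so no pairing follows from them. By a chi-square statistic of the counts, which also moves with depth, each library was closest to its neighbouring code (9.46 for 7 and 8, 11.7 for 9 and 10, 6.56 for 11 and 12, range over all pairs 6.56 to 37.2), a hint from the data and not from the design. With a replicate block of neighbouring codes (7 and 8, 9 and 10, 11 and 12), which the labels do not name as pairs, 71 genes passed, and 1 of the 10 members, Atp6v1e1, at -0.44, was among them. Depth limits the scarce isoforms: the members had at least 762 counts in every library, while Atp6v0d2 had as few as 8.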

Other observations

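Genes whose levels followed those of Atp6v1e1 over the 6 libraries were ranked by the root mean square difference of centred log2 CPM, among 7860 protein-coding genes at 10 CPM or more, as a description over libraries that share their depth and pools. The 5 closest were Caprin2 (0.09), Plau (0.10), Decr1 (0.10), Rab20 (0.11) and Med10 (0.11), against a median of 0.27 over all ranked genes and 0.23 for the spread of Atp6v1e1 about its own mean. The groups of Atp6v1e1 are apart, so a ranking by likeness to it favours genes whose groups are apart too. Plau, the urokinase-type plasminogen activator, measured 433, 434 and 404 CPM in NTg 7, 9 and 11. In double-mutant 8, 10 and 12 Plau was at 325, 306 and 314 CPM, without overlap. Rab20, a small GTPase of phagosomes and endosomes, measured 110.0, 99.2 and 97.1 CPM across NTg against 81.1, 88.1 and 83.8 CPM across the double mutant. Among the pump members the closest was Atp6v1c1, at rank 22 (0.13), followed by Atp6v1b2 at rank 165 and Atp6v1a at rank 349. When genes from 1 CPM were ranked, 1 of the first 5 genes, Caprin2, was shared.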
